A study of Mus musculus with 12 samples.

Results

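Open chromatin between genes, at 5 to 50 kb from the nearest protein-coding gene end, was examined in sorted, recently active neurons of the mouse prefrontal cortex. The peaks were taken from the 3 ATAC-seq peak lists that cover chromosomes 1 to 19, those of EXT replicate 1, EXT replicate 2 and RC replicate 3. A peak belonged to the set if it touched no protein-coding or lncRNA gene span of the RefSeq annotation and lay 5 to 50 kb from the nearest end of a protein-coding gene (build mm10). That rule took 35491 of 297584 peaks, namely 9344 of 79656 in EXT replicate 1, 14737 of 121469 in EXT replicate 2 and 11410 of 96459 in RC replicate 3. The rule used position only, so widths, enrichments and recurrence were not part of the choice.

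The study compared fear extinction (EXT) with a retention control (RC). All animals were male C57BL/6 mice of 10 to 12 weeks that had been fear-conditioned by 3 tones, each ending with a foot shock. A day later and in another context, EXT mice heard the tone 60 times, RC mice were placed there for as long but heard none, and the infralimbic prefrontal cortex was taken straight afterwards. For ATAC-seq, tissue of 5 mice was pooled per library and 50000 cells positive for Arc and NeuN were sorted, so both groups hold cells that had switched on the activity-induced gene Arc, and each replicate stands for 5 animals together. EXT is represented here by 2 libraries and RC by 3; EXT replicate 3 and the 6 lncRNA capture libraries of the same study were not analysed here. The lists of RC replicates 1 and 2, as held here, end within chromosome 1, so comparisons between groups used the stretch of chromosome 1 that all 5 lists reach, up to position 37624379.

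ATAC-seq marks DNA that a transposase can cut, which is DNA not wrapped tightly in nucleosomes. Away from genes, such sites are often enhancers, where transcription factors bind and from which they act on promoters at a distance; insulator sites, unannotated promoters and small RNA genes can also be open there. In neurons, factors of the AP-1 family, such as Fos, are known to bind distal enhancers after activity. The nearest gene is used below only as an address: an enhancer may act on another gene.

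No genome sequence of this build was used, so the sequences shown are those for which a reference entry exists, the RefSeq start windows of lncRNA genes (build GRCm38.p6, 250 bases before the start to 50 after it) and a microRNA. The windows shown are examples picked from the 10 that peaks of all 3 lists overlapped, and do not stand for such peaks in general. Those 10 windows held a median of 4 CpG dinucleotides, and 1 of them held an AP-1 motif. Capitals in the windows mark bases inside a peak of all 3 lists. The first, at chr11:120189807-120190106 on the minus strand, and the second, at chr5:25529768-25530067 on the plus strand, are rich in CpG, with 27 and 33 CpG dinucleotides in the window. The third, at chr5:129493054-129493353 on the plus strand, lies under a peak of 160 bp whose bounds were the same in the 3 lists. The fourth, at chr2:13558653-13558952 on the plus strand, holds an AP-1 motif inside the shared bases.
2810410L24Rik: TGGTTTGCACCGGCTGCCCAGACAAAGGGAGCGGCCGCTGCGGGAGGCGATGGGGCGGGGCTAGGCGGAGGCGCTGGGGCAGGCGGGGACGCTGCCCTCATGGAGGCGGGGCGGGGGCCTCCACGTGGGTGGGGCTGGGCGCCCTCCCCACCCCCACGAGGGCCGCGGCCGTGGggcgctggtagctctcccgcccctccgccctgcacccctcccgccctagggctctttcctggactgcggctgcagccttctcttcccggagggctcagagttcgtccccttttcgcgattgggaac
1700096K18Rik: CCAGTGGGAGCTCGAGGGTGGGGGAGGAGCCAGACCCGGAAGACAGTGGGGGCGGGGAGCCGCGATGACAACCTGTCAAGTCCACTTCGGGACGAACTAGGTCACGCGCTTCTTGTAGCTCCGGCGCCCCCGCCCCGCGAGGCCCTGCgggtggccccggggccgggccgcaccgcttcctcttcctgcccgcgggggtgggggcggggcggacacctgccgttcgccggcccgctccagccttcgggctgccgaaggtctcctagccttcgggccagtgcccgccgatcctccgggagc
Gm34468: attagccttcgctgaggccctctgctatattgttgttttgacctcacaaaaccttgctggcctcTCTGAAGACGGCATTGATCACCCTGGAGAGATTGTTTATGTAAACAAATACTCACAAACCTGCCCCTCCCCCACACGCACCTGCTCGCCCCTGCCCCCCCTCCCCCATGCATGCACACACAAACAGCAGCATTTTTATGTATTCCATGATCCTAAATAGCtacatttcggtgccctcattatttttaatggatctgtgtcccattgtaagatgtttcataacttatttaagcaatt
Gm9875: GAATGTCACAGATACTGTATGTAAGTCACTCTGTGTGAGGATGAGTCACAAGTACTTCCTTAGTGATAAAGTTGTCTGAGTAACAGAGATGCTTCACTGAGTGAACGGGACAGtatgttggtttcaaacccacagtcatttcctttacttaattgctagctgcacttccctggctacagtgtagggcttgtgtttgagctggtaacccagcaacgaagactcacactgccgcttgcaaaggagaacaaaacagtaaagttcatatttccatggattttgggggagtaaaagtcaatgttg

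Start windows of 10 lncRNA genes were overlapped by such peaks in all 3 lists, and those of 80 genes, in 88 windows, in 1 list or more. The letters TGANTCA, an AP-1 motif read on both strands, were found in 18 of those 88 windows (20.5%), against 1046 of all 11311 lncRNA windows (9.25%). Of the 10 windows overlapped in all 3 lists, 1 held it (10%), a share close to that of all lncRNA windows. The CRE motif TGACGTCA was found in 1 of the 88 (1.14%), against 0.990% of all lncRNA windows, and the E-box CAGCTG in 20 (22.7%), against 17.6%. The median GC content of the 88 windows was 51.7%, against 48.3% for all lncRNA windows. All lncRNA windows include those inside or close to coding genes, which these peaks cannot overlap, so the sets are not matched. The 88 windows belong to 80 genes, and a motif of a window need not lie inside the peak. A motif match describes the letters of a window and is not a binding site. In the window of 2810410L24Rik the fold enrichment was 5.00 in EXT replicate 1 and 9.59 in EXT replicate 2, against 4.90 in RC replicate 3; in that of 1700096K18Rik it was 7.61 and 13.97, against 11.29. At the window of Gm34468 the values were 9.40 and 6.02 in the EXT replicates, against 12.18 in RC replicate 3, and at that of Gm9875 they were 3.86 and 5.69, against 2.89. Fold enrichment is the authors' ratio of tags at a summit to those in its surroundings, and each value is comparable only within its own list.

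MicroRNA hairpins were touched by these peaks in all 3 lists at 3 places, and to different extents. Mir1983, 47858 bp from Zfp184 at chr13:21896918-21897049 on the minus strand, was covered almost whole, and its mature strand is shown, with the seed, bases 2 to 8, in capitals; the seed lay inside the peak of all 3 lists.
mmu-miR-1983: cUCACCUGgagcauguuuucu
The annotated span of Mir1983 also contains the tRNA gene n-TItat14, and the peak over it had a fold of 4.67 in EXT replicate 1 and 5.87 in EXT replicate 2, against 4.62 in RC replicate 3. Mir34a, which encodes a microRNA known as a target of p53, lies 18858 bp from Gpr157. Of the 102 bases of its hairpin, 70 and 102 lay inside a peak of the EXT replicates, against 70 in RC replicate 3, and the seed of its 5p strand lay outside the peaks of EXT replicate 1 and RC replicate 3. At Mir7671, 6154 bp from Irf1, the peaks covered 1 and 58 of 58 bases in the EXT replicates, against 58 in RC replicate 3.

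The libraries did not sort by group, which bears on all that follows. Tag totals were 65.0 M in EXT replicate 1 and 57.7 M in EXT replicate 2, against 69.1 M, 68.9 M and 73.8 M in RC replicates 1, 2 and 3, and the library with the fewest tags had the longest of the complete lists. On the shared stretch, EXT replicate 1 and RC replicate 3 had the narrowest members (medians 165 and 163 bp) and the fewest (103 each), while EXT replicate 2 and RC replicates 1 and 2 had medians of 227, 237.5 and 207 bp and 125, 122 and 142 members. The share of bases that 2 sets have in common, out of all bases that either covers (the Jaccard index), was 0.477 to 0.499 among these last 3 libraries, including 0.499 for EXT replicate 2 with RC replicate 1. It was 0.287 for the 2 EXT libraries and 0.360 for EXT replicate 1 with RC replicate 3. Coding gene ends (within 1 kb) carried a peak for 4, 5 and 4 of 5 neuron markers and for 4, 5 and 4 of 5 excitatory neuron markers in EXT replicate 1, EXT replicate 2 and RC replicate 3; for astrocyte markers the count was 1 of 5 in each. Inhibitory neuron markers had end peaks for 3, 1 and 3 of 5, microglia markers for 2, 1 and 1, endothelial markers for 1, 2 and 2, and oligodendrocyte markers for 1, 2 and 1 of 4, in the same order of libraries. End peaks were common among coding genes at large. Of 11247 genes with intergenic sequence at 5 to 50 kb but no peak region of all 3 lists there, 46.1%, 53.3% and 48.4% had one. Of 2302 genes with 1 such region, 64.5%, 74.2% and 68.4% did. Counts out of so few markers therefore do not show that a cell type was present or absent. The part of these cell types and libraries in the results below was not tested.

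Near-gene intergenic peaks were sparser than the genome as a whole and denser than gene deserts, which are intergenic sequence over 50 kb from a coding gene. The class spans 385.7 Mb, 15.9% of the sequence considered, and took 11.7% of peaks in EXT replicate 1 and 12.1% in EXT replicate 2, against 11.8% in RC replicate 3. Its density was 24.2 and 38.2 peaks per Mb in the EXT replicates, against 29.6 per Mb in RC replicate 3. That is 2.20, 2.06 and 2.14 times the desert density of the same lists, and 0.740, 0.765 and 0.746 times that of all sequence. Lengths here and below include sequence to which reads cannot be mapped, so densities are not per Mb of mappable sequence. Sequence within 1 kb of a coding gene end held 183 and 217 peaks per Mb in the EXT replicates, against 195 per Mb in RC replicate 3, so the 3 lists gave the same order of classes although their lengths differ. On the shared stretch of chromosome 1, the members' density was above the desert density in 5 of 5 libraries, at 25.2 ± 3.49 against 8.39 ± 1.72 peaks per Mb (SD, n = 5), with a mean log2 ratio of 1.60 (exact two-sided sign-flip test, p = 0.062, the smallest that 5 libraries allow; 0.125 after Benjamini-Hochberg adjustment over 8 tests). This design cannot reach 0.05.

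**Figure D1:**
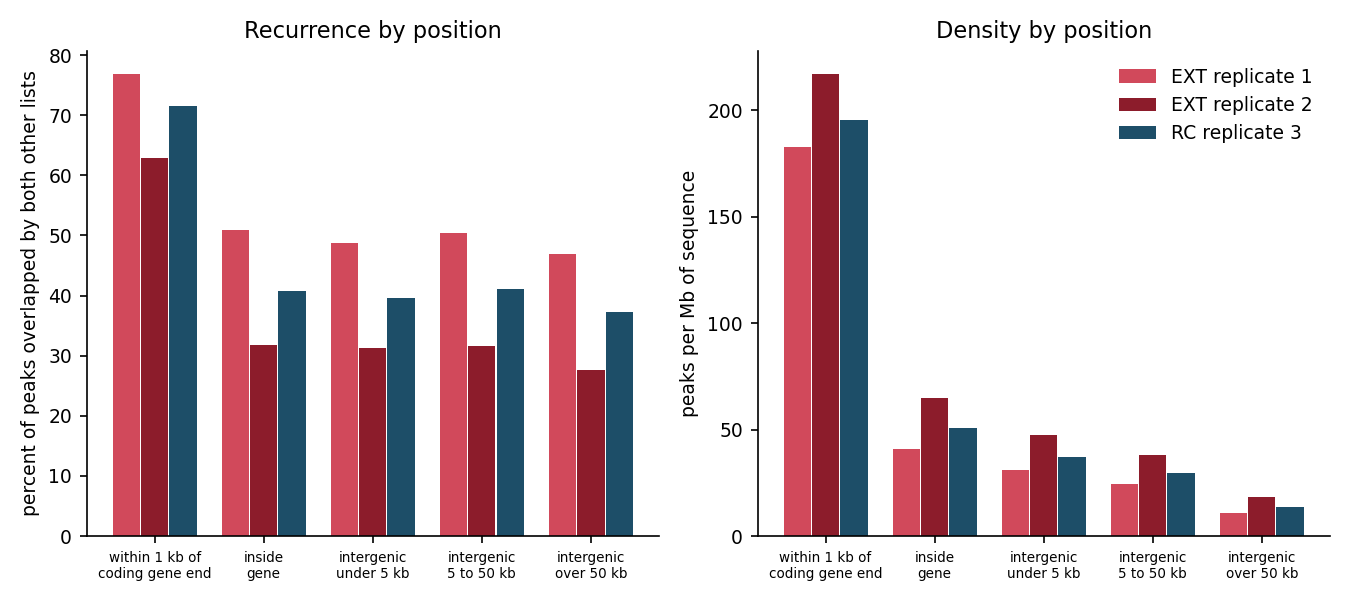
Percent of peaks overlapped by both other complete lists (left) and peaks per Mb of sequence (right) for 5 classes of position on chromosomes 1 to 19, with a bar for EXT replicate 1, EXT replicate 2 and RC replicate 3. Intergenic peaks at 5 to 50 kb recurred in 50.4%, 31.7% and 41.0% of cases, below peaks at coding gene ends at 76.9%, 62.8% and 71.5%.

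Within the class, density was lower and median enrichment higher far from the gene than near it. Between 5 and 10 kb there were 28.0 and 43.2 peaks per Mb in the EXT replicates, against 33.9 in RC replicate 3. Between 40 and 50 kb there were 20.0 and 31.5 in the EXT replicates, against 24.4 in RC replicate 3. Over the same bins the median fold was 3.68, 4.38 and 3.84 nearest the gene and 4.02, 4.98 and 4.42 farthest from it (EXT replicate 1, EXT replicate 2, RC replicate 3). The values just outside the bounds of the rule were close to those just inside. Peaks within the last 1 kb below 5 kb had median folds of 3.54 and 4.14 in the EXT replicates, against 3.67 in RC replicate 3, and those within the first 1 kb above it 3.56 and 4.27, against 3.69. At 50 kb the medians were 3.70 and 4.80, against 4.33, just inside, and 3.90 and 4.83, against 4.19, just outside. The side of the gene made little difference to density: the ratio of density on the 5′ side to that on the 3′ side was 0.995 and 0.988 in the EXT replicates, against 0.985 in RC replicate 3, over the 78.1%, 78.4% and 77.8% of members whose nearest gene has a known strand.

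**Figure D2:**
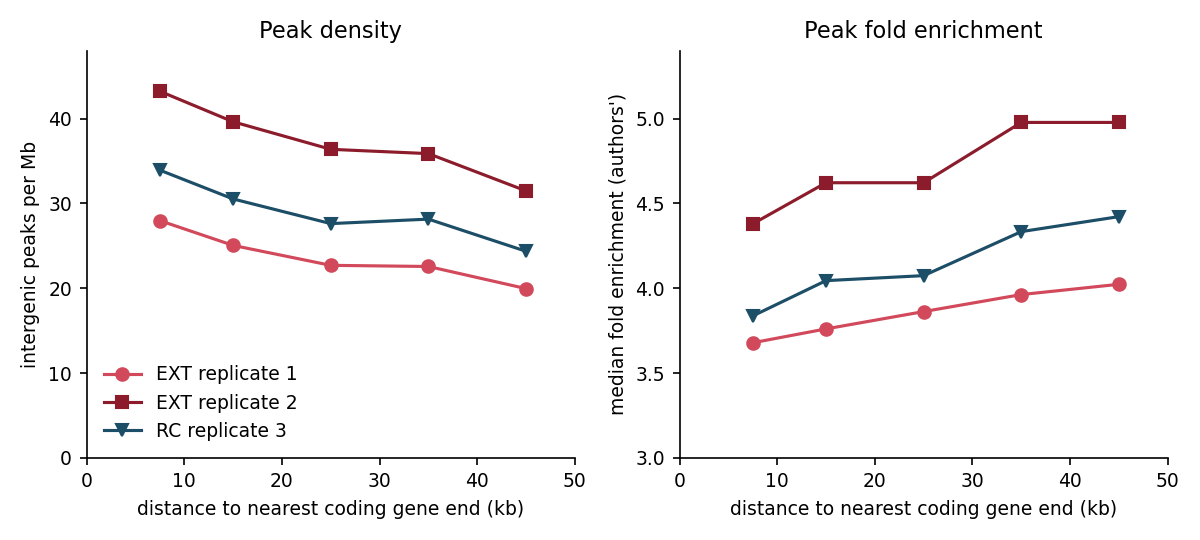
Intergenic peaks per Mb (left) and their median fold enrichment, as the authors' lists give it (right, axis starting at 3), against distance to the nearest coding gene end in kb, in 5 bins plotted at their midpoints, for EXT replicate 1, EXT replicate 2 and RC replicate 3. Density went down and median fold up with distance in all 3 lists, with a small rise in density from the 20 to 30 kb to the 30 to 40 kb bin in RC replicate 3 (27.6 and 28.1 per Mb).

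The members were narrower than peaks at gene ends and close in width to peaks inside genes. Their median width was 194 bp in EXT replicate 1 and 225 bp in EXT replicate 2, against 183 bp in RC replicate 3, where peaks at coding gene ends had medians of 325, 417 and 347 bp and desert peaks 161, 198 and 161 bp. Peaks inside genes, the most numerous class, had medians of 199, 236 and 203 bp in the same lists. The single most common width was 160 bp, held by 19.5% and 16.1% of members in the EXT replicates, against 23.7% in RC replicate 3, followed by 150 bp and 161 bp. Peaks of 150 to 161 bp, a range that spans these 3 widths, made up 38.5% and 31.6% of members, against 41.8%. The shortest peak width was 150 bp, the same length as the tag extension that the headers give. Widths of 1000 bp or more were held by 0.310% and 0.556%, against 0.342%. On the shared stretch, members were narrower than peaks at gene ends in 5 of 5 libraries, with a mean difference of -173.7 bp (medians averaging 199.9 ± 34.6 against 373.6 ± 63.0 bp, SD, n = 5; exact two-sided sign-flip test, p = 0.062, adjusted p = 0.125).

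**Figure D3:**
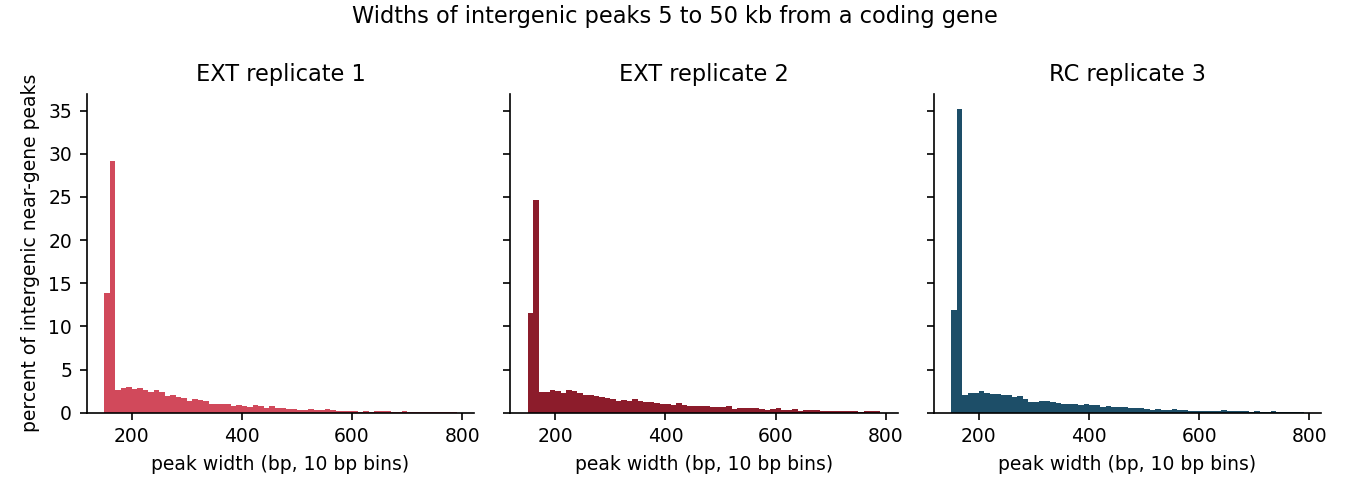
Percent of intergenic near-gene peaks in bins of 10 bp of width, one panel each for EXT replicate 1, EXT replicate 2 and RC replicate 3; peaks of 790 bp or more are not drawn. All 3 lists have their highest bar in the bin from 160 bp, next to a lower one from 150 bp, and a long, flat tail of wider peaks.

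Enrichment and width were not ordered together. The median fold of all members was 3.82 and 4.62 in the EXT replicates, against 4.04 in RC replicate 3, which lies at percentile 52.3, 54.2 and 53.7 of all folds in those lists. Members of 150 to 161 bp had median folds of 5.15 and 5.16, against 5.34. Wider members up to 500 bp had 3.38 and 4.09, against 3.41, and those over 500 bp 4.27 and 6.25, against 4.34. The narrowest members were thus more enriched than those of middle width in each list. On the shared stretch the median fold percentile of members was above that of all other peaks in 5 of 5 libraries, at 60.2 ± 2.33 against 49.6 ± 2.69 (SD, n = 5), a mean difference of 10.6 percentile points (exact two-sided sign-flip test, p = 0.062, adjusted p = 0.125). A percentile ranks a peak within its whole list as held, which for RC replicates 1 and 2 ends within chromosome 1. RC replicate 3 had the smallest difference, 3.36 points. The other peaks are mostly those inside genes, whose medians averaged 41.8 ± 0.900, while peaks at gene ends averaged 69.6 ± 4.14 and desert peaks 68.3 ± 5.95 (SD, n = 5), both above the members. The complete lists likewise had members below gene ends (62.0, 65.9 and 62.3) and deserts (64.7, 62.4 and 65.6) and above peaks inside genes (43.4, 43.1 and 42.6) in EXT replicate 1, EXT replicate 2 and RC replicate 3.

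Members were found again in the other lists less often than peaks at gene ends and about as often as peaks inside genes. In EXT replicate 1, 50.4% of members were overlapped by 1 bp or more by both other complete lists; in EXT replicate 2 the share was 31.7%, against 41.0% in RC replicate 3. The same shares were 51.0% and 31.8%, against 40.7%, for peaks inside genes, and 46.9% and 27.6%, against 37.2%, for desert peaks. No other list overlapped 19.7% and 41.4% of members in the EXT replicates, against 17.3% in RC replicate 3; EXT replicate 2, with the longest list, had the most unmatched members. On the shared stretch, all 4 other lists overlapped 31.1% and 23.2% of members in EXT replicates 1 and 2, against 23.8%, 21.1% and 30.1% in RC replicates 1, 2 and 3. For peaks at gene ends these shares were 61.4% and 59.3%, against 59.2%, 58.2% and 63.7%. The mean difference was -34.5 percentage points and had the same sign in 5 of 5 libraries (exact two-sided sign-flip test, p = 0.062, adjusted p = 0.125).

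Recurrence was highest for wide members and differed with fold. Members over 500 bp were overlapped by a peak of EXT replicate 2 for 93.7% of those of EXT replicate 1 and 94.5% of those of RC replicate 3. For members of 150 to 161 bp these shares were 48.3% and 59.1%, below the 67.7% and 70.8% of wider members up to 500 bp. Among overlaps by RC replicate 3 the narrow members stood above those of middle width, with 73.9% against 61.8% for EXT replicate 1 and 53.4% against 43.4% for EXT replicate 2. Overlaps by EXT replicate 1 gave 30.0% against 34.2% for EXT replicate 2 and 54.4% against 51.7% for RC replicate 3, so the order of narrow and middle widths depended on the pair of lists. Ranked by fold within a list, the weakest 10% of members were held by all 3 lists in 29.6% and 10.6% of cases for the EXT replicates, against 19.7% for RC replicate 3, and the strongest 10% in 79.9% and 49.1%, against 72.0%. The rise was not even, since the next strongest 10% of EXT replicate 2 reached 55.1%. Members held by all 3 lists had median widths of 239 and 351 bp in the EXT replicates, against 263 bp in RC replicate 3, while those held by a single list had 184 and 197 bp, against 179 bp.

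Merging members that overlapped gave 20248 regions. All 3 lists held a peak at 4709 of them (23.3%), where 25.9% of the 166039 merged regions of all peaks on these chromosomes were held by all 3. Peaks were joined in chains, so lists that hold the same region need not share a base of it. When each list had to cover 50% of a region, 3344 regions remained in all 3 lists. The 4709 regions had a median merged width of 424 bp, and 185 spanned 1000 bp or more. In 796 of them (16.9%) the 3 peaks began and ended at the same bases, and 705 of those 796 were 150 to 161 bp wide. Identical bounds were most common between EXT replicate 1 and RC replicate 3, at 32.4% of the 6419 overlapped members, against 25.8% of 7642 for EXT replicate 2 with RC replicate 3 and 15.1% of 5794 for the EXT pair. Identical bounds were counted for members only, so these shares do not show whether members differ from other peaks. The 1672 regions shared by EXT replicate 1 and RC replicate 3 but not EXT replicate 2 had a median width of 160 bp, and RC replicate 1 overlapped 15 of the 94 that its list reaches (16.0%). The 2959 regions shared by EXT replicate 2 and RC replicate 3 but not EXT replicate 1 had a median width of 244 bp, and RC replicate 1 overlapped 152 of 170 (89.4%).

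Regions that followed the groups on the complete lists were looked up in the further RC lists. Both EXT lists but not RC replicate 3 held 982 regions (4.85%), where the share among all merged regions was 4.36%. RC replicate 3 alone held 1975 (9.75%), where the share among all was 10.8%; both shares of members lie near those backgrounds. Of the 72 EXT-shared regions within reach of RC replicate 1, that RC list overlapped 57 (79.2%), and RC replicate 2 overlapped 12 of 17 (70.6%). Of the regions held by RC replicate 3 alone, RC replicate 1 overlapped 20 of 100 and RC replicate 2 overlapped 3 of 17 (17.6%). Most regions that set both EXT lists apart from RC replicate 3 thus held a peak in another RC list where this could be looked up.

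No difference between EXT and RC was detected on the shared stretch, where 2 against 3 libraries allow 10 arrangements of the labels and no p below 0.1. EXT libraries had 103 and 125 members (114 ± 15.6, SD, n = 2), against 122, 142 and 103 in RC libraries (122.3 ± 19.5, SD, n = 3). The groups overlapped fully, and the mean difference in log2 number was -0.10 (exact two-sided permutation test, p = 0.8, adjusted p = 0.9). Members made up 12.7% and 10.8% of peaks in EXT libraries, against 10.5%, 11.4% and 11.5% in RC libraries, a difference of 0.686 percentage points (exact permutation test, p = 0.6, adjusted p = 0.9). Median widths were 165 and 227 bp, against 237.5, 207 and 163 bp, a difference of -6.5 bp (exact permutation test, p = 0.8, adjusted p = 0.9). Pairs of libraries of the same group shared no more bases than pairs across groups, with mean Jaccard indices of 0.354 ± 0.098 and 0.362 ± 0.108 (SD; exact permutation test, p = 0.9, adjusted p = 0.9). The replicates are separate pools of mice, and with so few of them a p of this size does not show that the groups are alike.

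**Figure D4:**
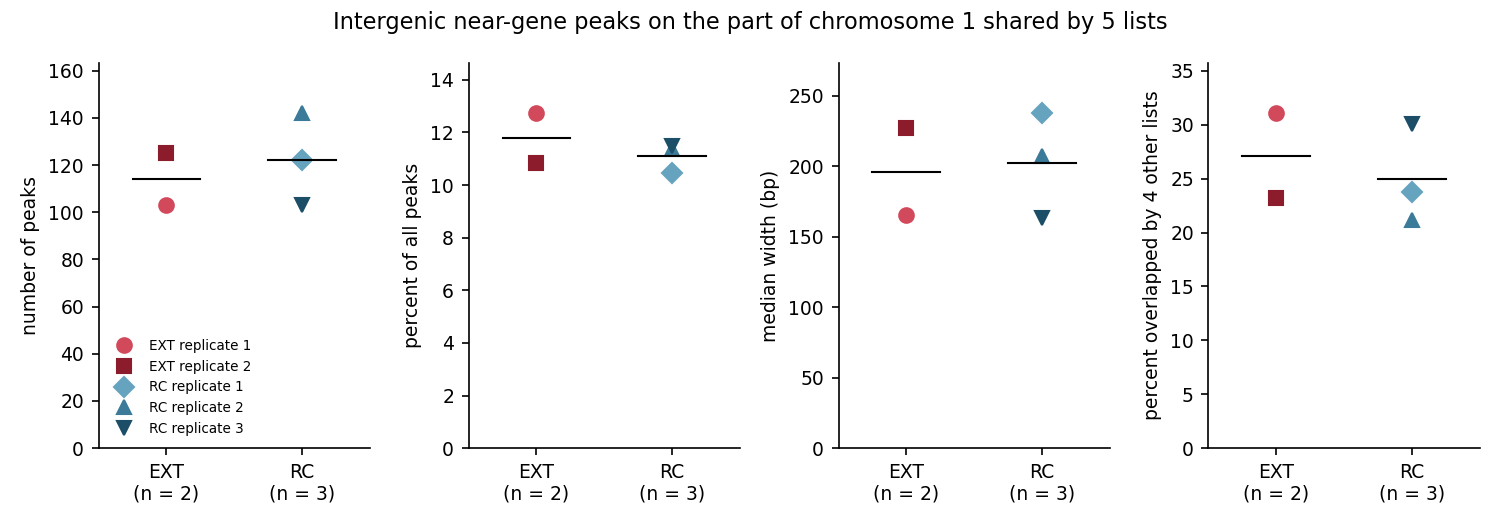
Number of intergenic near-gene peaks, their percent of all peaks, their median width in bp and the percent of them overlapped by the 4 other lists, on chromosome 1 up to position 37624379, with a point per library, EXT (n = 2) left of RC (n = 3) and a line at each mean. The EXT points lie within the range of the RC points except for the share (12.7%) and the recurrence (31.1%) of EXT replicate 1, and EXT replicate 1 and RC replicate 3 lie close together in number, width and recurrence.

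The regions were spread thinly over many genes. Of 20665 protein-coding genes, 14516 had intergenic sequence of this kind for which they were the nearest gene. A merged region was found next to 7372 of them (50.8%), and a region held by all 3 lists next to 3269 (22.5%); no gene had more than 7 of the latter. Neighbouring regions of the same gene in all 3 lists lay a median of 10220 bp apart. Genes with a region in all 3 lists more often had a peak at their own end, in 66.4% and 75.9% of cases in the EXT replicates, against 70.1% in RC replicate 3. For the 7144 genes with such sequence and no region these shares were 40.4% and 46.6%, against 42.6%. The amount of sequence differed too, with a median of 14.2 kb for genes with no region in all 3 lists and 57.8 kb for those with 4 to 7.

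The gene with the most regions in all 3 lists was Ipo5, an importin that carries proteins into the nucleus (chromosome 14, 120896840 to 120948046). It had 7 of them among 17 merged regions, from 12 and 11 peaks in the EXT replicates, against 11 in RC replicate 3. They lay on both sides of the gene, 4 on the 5′ side and 3 on the 3′ side. Averaged over the 3 lists, their fold percentiles ranged from 9.94 to 79.3. The region at 79.3 lay 41005 bp from the 3′ end, with folds of 5.43 and 7.38 in the EXT replicates, against 5.99 in RC replicate 3. Next came 6 genes with 6 such regions each. Lhx2, a LIM homeobox transcription factor of the developing cortex, had 7 and 10 peaks in the EXT replicates, against 9 in RC replicate 3. Of its regions, 3 spanned 160 bp, and the widest, 1466 bp long, lay 32246 bp from the 3′ end with folds of 4.46 and 7.42 in the EXT replicates, against 5.28 in RC replicate 3. All 6 regions of Pde10a, a phosphodiesterase that breaks down cyclic nucleotides, lay on its 5′ side within 36783 bp of the gene, in 36.3 kb of sequence, which made it the densest of the 15 genes at 16.5 regions per 100 kb. Its peaks numbered 8 and 7 in the EXT replicates, against 6 in RC replicate 3. Ptk2, the focal adhesion kinase, had 7 and 9 peaks, against 8, all 6 shared regions beyond its upper-coordinate end, and Cd83, an immune surface glycoprotein, had 6 and 7, against 8, all 6 before its lower end. Pcgf5, a Polycomb group protein, had 10 and 8, against 8, and Scaf8, which binds the tail of RNA polymerase II, 8 and 13, against 6.

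A further 8 of the 15 leading genes had 5 regions in all 3 lists, as did 17 genes not among the 15, since the tie of 25 genes was broken by the number of all merged regions. Bcl11b, the transcription factor that marks deep-layer cortical projection neurons, had 20 merged regions, the most of the 15, from 7 and 14 peaks in the EXT replicates, against 12 in RC replicate 3. Olfm1, a secreted glycoprotein of neurons, had 9 and 13 peaks, against 13, and Rxra, a retinoid X receptor, 10 and 13, against 8. Both have 90.002 kb of such sequence, as does Bcl11b, while Ptk2 has 44.4 kb. The remaining genes were Cop1, an E3 ubiquitin ligase, Med27, a Mediator subunit, Stmnd1, Zfp366, a zinc finger protein, and Pdcl3, a phosducin-like protein. The order below Ipo5 rests on differences of 1 region. Only 6 of the 15 genes remained when a list had to cover 50% of a region, and 8, 6 and 10 of them when EXT replicate 1, EXT replicate 2 or RC replicate 3 was left out.

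**Figure D5:**
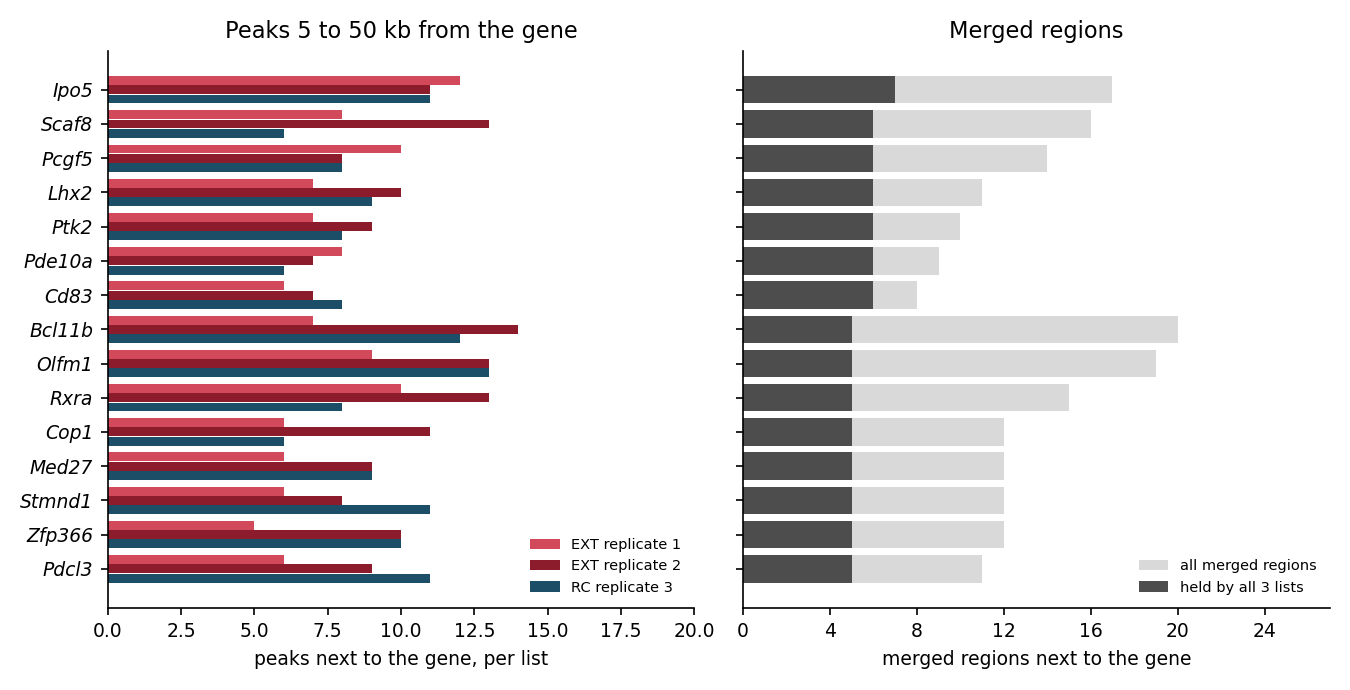
For 15 genes with the most regions held by all 3 lists (17 others tie with the last 8), peaks 5 to 50 kb from the gene in EXT replicate 1, EXT replicate 2 and RC replicate 3 (left, bars from top to bottom) and merged regions (right), in grey for all and dark for those held by all 3 lists. Ipo5 has 7 dark regions, 6 genes have 6 and 8 genes have 5.

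No gene had 8 or more regions in all 3 lists, so the ranking by density planned at that size was empty. Among genes with 4 or more, a bound chosen after the data were seen, Slc35c2, a nucleotide sugar transporter family member, was densest with 4 regions in 15.8 kb, or 25.3 per 100 kb, followed by Ahdc1 with 4 in 17.6 kb, or 22.7 per 100 kb. Genes with the most regions in both EXT lists and not RC replicate 3 had no more than 3 of them: Sec14l1, Cnih3, an auxiliary subunit of AMPA receptors, Rims1, a presynaptic active zone protein, Dlk1, an imprinted Notch-family ligand, and Pdcd6ip, an ESCRT accessory protein, had 3 each, and Olfm1, Igsf21, a synaptic adhesion protein, and Gli2, a Hedgehog pathway transcription factor, 2 each. Of regions held by RC replicate 3 alone, Sec14l1 and Celf2, an RNA-binding splicing regulator, had 5 each, Olfm1, Grin2b, an NMDA receptor subunit, Adgrd1, an adhesion G protein-coupled receptor, and Sash1 4 each, and Bcl11b and D430019H16Rik 3 each. Sec14l1 and Olfm1 were thus named for both patterns, and Rims1 also had 3 regions of RC replicate 3 alone. Both rankings end within a tie that was broken by the number of all merged regions: 85 other genes had 2 EXT-shared regions and 39 others had 3 regions of RC replicate 3 alone.

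Gene groups differed in how many regions they had per length of sequence. Over all coding genes there were 1.22 regions in all 3 lists per 100 kb, and the median gene had 0. Immediate early genes, which neurons switch on within minutes of activity, had 3.47 per 100 kb, and 15 of the 27 with such sequence (55.6%) had a region, against 22.5% of all coding genes. Dusp6, a phosphatase that inactivates ERK, led with 5 regions in 65.2 kb, from 8 and 5 peaks in the EXT replicates, against 7 in RC replicate 3. Fos, the AP-1 subunit, had 3, from 6 and 6 peaks, against 4. Sik1, a salt-inducible kinase, and Nr4a3, an orphan nuclear receptor, also had 3 each. The 28 regions next to immediate early genes spanned 160 to 1010 bp with a median of 580.5 bp, and 3 of them, at Homer1, Fosb and Gadd45g, spanned 161 bp or less. Those of Fos spanned 839, 700 and 580 bp. Arc, the gene used for the sort and added here after its values were seen, had a single region, 9232 bp away, with folds of 4.26 and 6.64 in the EXT replicates, against 3.82 in RC replicate 3. Bdnf, Nr4a2 and Npas4, also chosen after the fact, had no peak in any list within their 90.002, 45.0 and 6.49 kb of sequence.

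The Fos regions lay 5413 bp from the 5′ end and 8431 and 10350 bp from the 3′ end. The first had folds of 5.90 and 5.19 in the EXT replicates, against 4.86 in RC replicate 3; the second 4.52 and 5.71, against 3.65; and the third 3.38 and 5.26, against 5.22. Folds of different lists are not on the same scale, so these values do not order the lists. By percentile of fold within a list, the third region stood at 40.6 and 63.7 in the EXT replicates, against 71.5 in RC replicate 3. The Dusp6 region with the highest mean percentile, 20471 bp from the 5′ end, was at percentile 63.6 and 79.8 in the EXT replicates, against 59.8.

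Housekeeping genes had 3.03 regions in all 3 lists per 100 kb, close to the immediate early genes, but in 231.0 kb of sequence over 11 genes; Ywhaz, a 14-3-3 protein, had 3 of their 7 regions, and Psmb2, a proteasome subunit, Rab7, a GTPase of late endosomes, Emc7 and Reep5, proteins of the endoplasmic reticulum, had 1 each. Interneuron genes had 2.04 per 100 kb, led by the transcription factor Sox6 with 3 and Calb2, which encodes calretinin, with 2. As counted, that list also held Uba2, which is not an interneuron gene and had no region in 2.95 kb of sequence. Cortical projection neuron transcription factors had 1.47, and of their 22 regions 6 belonged to Lhx2 and 5 to Bcl11b. Glutamate receptor genes had 1.16, led by Grm4, a metabotropic receptor, with 5, and the NMDA receptor subunit Grin2b with 2, which Grin2a equalled. Synaptic adhesion genes had 1.04, led by Lrfn2 with 3, and Cadm1, Lrfn1 and Nrxn3 had 2 each. Glial and vascular genes had 0.821, with 1 region each at Aldh1l1, Kdr, Mog and Olig2, and patterning transcription factors not of the cortex had 0.753, led by the T-box gene Tbx5 with 2, followed by Myod1, Pax2, Tbx3 and Gata6 with 1 each. The share of genes with a region in all 3 lists was also high in other groups. It was 47.4% for interneuron, 45.5% for housekeeping and 42.9% for synaptic adhesion genes. For projection neuron factors it was 34.5%, for glutamate receptor genes 33.3%, for glial and vascular genes 22.2% and for patterning factors 21.7%. Groups differ in the amount of sequence and in how close their genes lie to others, and no test was made between them.

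The 5 most enriched regions in all 3 lists spanned 176 to 443 bp, where the median of all such regions was 424 bp. Near Mex3c on chromosome 18, 39030 bp from the gene, a region of 364 bp had folds of 55.5 and 61.5 in the EXT replicates, against 58.5 in RC replicate 3, the top value of each list. The others lay near Cd209a, a C-type lectin (chr8:3754328-3754582), Fbln1, an extracellular matrix protein (chr15:85177680-85177855), Ifngr2, a subunit of the interferon gamma receptor (chr16:91534518-91534765), and Csf2ra, a subunit of the GM-CSF receptor (chr19:61199479-61199921). Their folds ranged from 41.0 to 56.3, and the region near Fbln1 had the same 176 bp in the 3 lists, with folds of 46.2 and 49.2 in the EXT replicates, against 55.0. These folds are over 10 times the median of their lists, at 3.82, 4.62 and 4.04 for members. Of the 3 widest regions, those described here spanned 1839 and 1745 bp and lay near Mcee, a methylmalonyl-CoA epimerase, and Ccr1, a chemokine receptor; that near Ccr1 was 83 bp from the lncRNA gene Gm51701.

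Distance to lncRNA genes and small RNA genes was not part of the rule beyond leaving out lncRNA spans. Members within 1 kb of a lncRNA end numbered 288 and 418 in the EXT replicates (3.08% and 2.84% of members), against 331 (2.90%) in RC replicate 3. No share of the sequence or of all peaks is set beside these, so they cannot be read as high or low. Transfer RNA genes were among the small RNA genes under members: 36 and 32 members overlapped one in the EXT replicates (0.385% and 0.217%), against 40 (0.351%) in RC replicate 3. These genes cover 0.00321% of the sequence, but a peak counted if it touched 1 bp, so the shares are not of the same kind. Of 164 tRNA genes there, 26 (15.9%) lay under a member of all 3 lists and 59 (36.0%) under a member of 1 list or more. For the 62 microRNA genes of this sequence these numbers were 3 (4.84%) and 8 (12.9%), and for the 378 snRNA and snoRNA genes 2 (0.529%) and 14 (3.70%). Of the 26, 7 are on chromosome 3, in 2 clusters, and 6 on chromosome 1. Their folds were ordinary, with medians of 3.90 and 3.95 in the EXT replicates, against 3.87 in RC replicate 3. Pseudogenes were overlapped by 1.94% and 2.08% of members, against 2.16%, and cover 2.98% of the sequence.

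Chromosomes differed in how many regions they held. Regions in all 3 lists numbered 17.9 per Mb of this sequence on chromosome 11 and 16.2 on chromosome 15, at the high end, and 8.69 on chromosome 3 and 8.96 on chromosome 7, at the low end. Chromosome 11 also had the highest density in each list, at 34.1 and 53.5 peaks per Mb in the EXT replicates, against 41.3 in RC replicate 3, and chromosome 7 the lowest, at 16.8 and 27.2, against 21.5. The order at both ends was thus the same in the 3 lists.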

How the data were processed

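ATAC-seq peak lists of 5 libraries (2 EXT, 3 RC) were used, grouped by sample title. Per the submitters' processing notes the build is mm10 and the tools include BWA 0.7.17, SAMtools 1.8, bedtools 2.27.1 and MACS2 2.2.4. BWA is an aligner, but the sources used here do not tie it to ATAC-seq by name. The authors ran MACS 2.2.4 on each library alone and without a control, per the file headers, shifting tags by -75 bp and extending them to 150 bp. They kept every duplicate tag, which can lift peaks made of few molecules, did not use read pairs, and set the q-value limit at 0.05. The deposited pileup is a coverage signal, fold enrichment is the authors' ratio of pileup to local background, and the −log10 p and −log10 q values are also as deposited. Folds of the lists are printed side by side, but each is comparable only within its own list. Read counts per region were not used, and errors are spreads between libraries.

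Peaks were classed against RefSeq gene spans of the assembly GRCm38.p6 (20665 protein-coding and 12408 lncRNA genes on chromosomes 1 to 19), in Python 3.11.15 with pandas 2.3.3 and NumPy 2.4.6, and overlap meant 1 bp or more. Desert sequence was counted between the outermost coding genes and 50 kb beyond them. Class assignment, overlaps and both tests were tested on simulated data. Group differences were tested by exact permutation of labels and class differences by exact sign-flips over 5 libraries, on chromosome 1 up to 37624379, where a last incomplete line in 2 lists was dropped. Named were the 15 genes with the most regions in all 3 lists, the 5 most enriched and 3 widest such regions, the 8 genes with the most EXT-shared or RC-only regions, ties being broken by the number of all merged regions, and the 2 leading genes of each of 8 gene lists, with their ties; other names are said to be chosen later. One of the widest regions is not reported here. The members and lists were chosen with earlier results of these data known. Alternatives are described in the closing section.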

Additional observations from a re-analysis of the deposited data

How the results depend on the processing

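Of 100 recomputed values for 9 results, 87 kept their direction and side of the threshold (for the leading genes, at least 10 of the 15), 9 changed sign and 4 moved; no result with a test crossed 0.05, which none of the designs could reach. The 4 comparisons of members with other peaks kept their direction under every alternative run: a stricter −log10 q of 5, lists of equal length, peaks over 200 bp, class by summit, bounds of 10 to 50 kb and 5 to 100 kb, 50% overlap for recurrence, and each library left out. Leaving out a library gave -34.5 to -28.3 percentage points for recurrence, -182 to -161.1 bp for width, 9.28 to 12.4 points for fold percentile and 1.56 to 1.68 for the log2 density ratio, which was 1.09 over chromosomes 1 to 19. The 4 comparisons of EXT with RC had no stable sign. With lists of equal length the difference in log2 number was 0.12 and the Jaccard difference 0.0079. Leaving out a library gave -0.24 to 0.043 for log2 number, -0.259 to 1.63 percentage points for share, -37.5 to 24.5 bp for width and -0.061 to 0.090 for the Jaccard difference, with the changes of sign coming without EXT replicate 1 (number 0.043, share -0.259, width 24.5), EXT replicate 2 (Jaccard 0.090), RC replicate 1 (width 11), RC replicate 2 (number 0.02) and RC replicate 3 (Jaccard 0.024). With the replicate number as a block, EXT minus RC was -0.21 for log2 number, 0.870 points for share and -26.25 bp for width, where 2 pairs allow no p below 0.5; no block could be made for the Jaccard index. Whether libraries with the same number share more than that number could not be told. The numbers are those of the sample titles. The name of EXT replicate 2's list carries another number, so its pairing with RC replicate 2 is uncertain. Deviations of member counts from the group mean in 500 kb bins correlated at -0.287 for replicate 1 and 0.115 for replicate 2. With 2 EXT libraries these deviations mirror each other, so EXT replicate 2 with RC replicate 1 necessarily gave 0.287. With RC replicate 3, EXT replicates 1 and 2 gave 0.345 and -0.345. Of the 15 leading genes, 5 remained when regions of any list counted, 6 with 50% overlap, 11 with −log10 q of 5, and 6 to 10 without a library; the cause was not tested. A single RC list covers the whole genome, which limits every whole-genome statement on groups.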
